A study of Homo sapiens with 12 samples.

Results

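Heterochromatin, the condensed and silent part of the genome, has to be rebuilt behind each replication fork, and 10 genes for enzymes and readers that do so were followed after knockdown of FAT1, a large atypical cadherin of the cell surface. They were the rows of the count table with the symbols UHRF1, DNMT1, DNMT3B, HELLS, SUV39H1, SUV39H2, EHMT2, CBX5, CHAF1A and CHAF1B, and all 10 were found among 19225 entries. The set was chosen by role around UHRF1 and SUV39H1, which had been selected on their lower values with FAT1 knockdown, so every value of the 10 genes against the control is given as a description, and counts by limits on P in those contrasts are no evidence about the set.

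RNA was taken from HN6 and HN30, established human oral squamous cell carcinoma (OSCC) cell lines, 24 h after transfection. Each line received a scrambled siRNA (NC), siFAT1-1 or siFAT1-2, which made 6 conditions with 2 repeats each, so 4 NC and 8 FAT1 knockdown (KD) libraries. The sample labels call the KD groups short hairpins while their descriptions name siRNAs, and a transient transfection with lipid was used in all groups, NC included. The repeats are labelled as separate times, and the data hold mRNA only, without protein, DNA methylation or histone marks.

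After replication, daughter DNA carries methyl groups on the parental strand only. UHRF1 binds such hemimethylated DNA and brings in DNMT1, the maintenance DNA methyltransferase, with help from the remodeler HELLS, while DNMT3B places new methyl groups. SUV39H1 and SUV39H2 trimethylate lysine 9 of histone H3 at pericentromeric repeats, EHMT2 (G9a) methylates the same lysine in euchromatin, and CBX5 (HP1 alpha) reads the mark. CHAF1A and CHAF1B are subunits of the chromatin assembly factor CAF-1, which loads new histones at the fork with PCNA.

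Total counts per library ran from 26430049 to 47639010, and levels are given as CPM, counts scaled to a common library size after TMM normalization. FAT1 itself was below both NC libraries of its line in every KD library, with 7.61 to 21.4 CPM in HN6 against 56.8 and 66.7, and 4.86 to 10.8 CPM in HN30 against 13.6 and 14.7. Of 9 squamous markers, KRT14 stood at 0 to 2.42 CPM and the other 8 had medians of 31.7 to 814 CPM. Of 10 markers of other cell types, PTPRC and ALB had 1 and 2 counts in all 12 libraries, and COL1A1 was highest with a median of 51.8 CPM.

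The promoters of the members are shown first because several of them share a short word. In the RefSeq promoter table for GRCh38.p14, which holds 250 bases before and 50 bases after each start, all 10 members had an entry. The core of sites for E2F factors, which drive genes of S phase, was searched on both strands as TTCCCGC, or in another common form as TTCGCGC, likewise in a further form as TTGCCGC, or finally written as TTGGCGC. They were found for UHRF1, DNMT1, HELLS, CHAF1A and CHAF1B, 5 of 10 members, against 15.3% of all genes and 13% of the 35116 promoters in the table. No such word was in these windows for SUV39H1, SUV39H2, EHMT2, DNMT3B and CBX5. The matches are given with 20 bases on either side, 5′ to 3′ along the gene, with the word in capitals.
UHRF1, chr19:4909377-4909423, plus strand, word 104 bases before the start: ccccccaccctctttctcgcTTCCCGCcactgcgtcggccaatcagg
UHRF1, chr19:4909467-4909513, plus strand, 14 bases before: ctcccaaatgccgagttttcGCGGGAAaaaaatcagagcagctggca
UHRF1, chr19:4909965-4910011, plus strand, 159 bases before another start: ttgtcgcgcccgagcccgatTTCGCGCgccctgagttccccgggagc
DNMT1, chr19:10194929-10194975, minus strand, 2 bases before: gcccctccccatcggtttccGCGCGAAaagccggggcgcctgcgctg
HELLS, chr10:94545692-94545738, plus strand, 76 bases before: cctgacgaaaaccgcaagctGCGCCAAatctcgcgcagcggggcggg
HELLS, chr10:94545761-94545807, plus strand, 7 bases before: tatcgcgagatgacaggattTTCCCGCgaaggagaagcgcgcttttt
CHAF1A, chr19:4402583-4402629, plus strand, 37 bases before: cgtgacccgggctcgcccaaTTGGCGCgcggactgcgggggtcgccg
CHAF1A, chr19:4402613-4402659, plus strand, 7 bases before: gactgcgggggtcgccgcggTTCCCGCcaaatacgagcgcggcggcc
CHAF1B, chr21:36385370-36385416, plus strand, 2 bases before: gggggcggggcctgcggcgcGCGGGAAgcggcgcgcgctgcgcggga

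A second word, CCAAT on either strand, was found for 6 of 10 members against 39.7% of all genes. It was the match in a promoter of SUV39H1, here in capitals.
SUV39H1, chrX:48696676-48696720, plus strand, 38 bases before the start: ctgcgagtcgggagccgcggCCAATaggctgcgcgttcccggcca
The cell cycle word TTTGAA was found for SUV39H2 alone among the members and for 18.2% of all genes. In CHAF1A, CCAAT matches overlapped the E2F word 37 bases before the start. A match is a string of letters and does not show that a factor binds, and a missing match says only that these letters are not in the window.

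UHRF1 (ENSG00000276043, chromosome 19, 4903080 to 4962154 in GENCODE 44) had the lowest fitted fold change of the set in HN30. There, the NC libraries stood at 219 and 148 CPM, the siFAT1-1 libraries at 33.3 and 49.1 CPM and the siFAT1-2 libraries at 33.7 and 41.1 CPM. All 4 KD libraries of HN30 lay below both NC libraries, at means of 22.4% and 20.4% of NC. In HN6, UHRF1 was at 94.3 and 210 CPM with NC, at 77.3 and 104 CPM with siFAT1-1 and at 13.9 and 95.5 CPM with siFAT1-2. These groups overlapped, since the first NC library of HN6 was below a library of each siRNA, although each KD library was below the NC library of the same time. Over both lines the log2 fold change of KD against NC was -1.68 (SE 0.418, n = 8 and 4), with -2.22 (SE 0.561) in HN30 and -1.06 (SE 0.565) in HN6. The library of HN6 siFAT1-2 repeat 1 held 502 UHRF1 counts, and without it the fold change was -1.56.

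DNMT1 (ENSG00000130816, chromosome 19, 10133342 to 10231286), the enzyme that UHRF1 recruits, spanned a narrower range. In HN30 it was at 325 and 266 CPM with NC, 102 and 132 CPM with siFAT1-1 and 153 and 250 CPM with siFAT1-2. HN6 held 213 and 322 CPM with NC, 179 and 203 CPM with siFAT1-1 and 123 and 258 CPM with siFAT1-2. The HN30 groups did not overlap and the HN6 groups did, although each HN6 KD library was below the NC library of its time, and the log2 fold change of KD against NC was -0.69 (SE 0.246). Per kilobase of exon, the ratio of UHRF1 to DNMT1 was 1.66 to 2.02 with NC in HN30 and 0.492 to 1.11 with KD, and 1.32 and 1.95 with NC in HN6 against 0.337 to 1.54 with KD. UHRF1 was thus further below its NC level than DNMT1 in all 4 KD libraries of HN30, while the HN6 ratios overlapped.

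HELLS (ENSG00000119969), whose loss leaves repeats undermethylated in mice, did not share a direction between the lines. In HN30 it was at 27.3 and 34.9 CPM with NC, 9.09 and 14.2 CPM with siFAT1-1 and 17.3 and 26.9 CPM with siFAT1-2, so that all KD libraries were below NC. The HN6 libraries held 25.8 and 9.36 CPM with NC, 17.3 and 21.5 CPM with siFAT1-1 and 20.9 and 53.3 CPM with siFAT1-2. The NC repeats of HN6 differed by more than the siFAT1-1 libraries differed from either of them, and the log2 fold change over both lines was -0.17 (SE 0.437).

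SUV39H1 (ENSG00000101945, chromosome X, 48695554 to 48709016) was the member whose KD and NC libraries were separated in both lines. In HN6 it was at 29.4 and 36.6 CPM with NC, 24.6 and 22.0 CPM with siFAT1-1 and 7.86 and 17.2 CPM with siFAT1-2. The HN30 libraries held 33.4 and 26.9 CPM with NC, 9.01 and 10.5 CPM with siFAT1-1 and 9.11 and 14.0 CPM with siFAT1-2. The condition means were 70.7% and 38.0% of NC in HN6 and 32.4% and 38.3% of NC in HN30. Its counts ran from 241 to 1297 per library, and the log2 fold change was -1.20 (SE 0.270). SUV39H1 was the only one of the 10 members with every KD library below both NC libraries of its line, which held for 3.15% of the genes tested. Against the NC library of the same line and time, every KD library was lower for UHRF1, DNMT1, SUV39H1, EHMT2 and CHAF1A, 5 of 10 members, and for 5.39% of genes.

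SUV39H2 (ENSG00000152455), the paralog with the same activity, was low in all libraries and followed another course. In HN6 it was at 8.10 and 4.76 CPM with NC, 11 and 11.4 CPM with siFAT1-1 and 2.96 and 9.54 CPM with siFAT1-2. HN30 had 11.4 and 14.9 CPM with NC, 11 and 10.9 CPM with siFAT1-1 and 4.12 and 7.60 CPM with siFAT1-2. The siFAT1-1 libraries of HN6 were above both NC libraries and those of HN30 just below them. Per kilobase, SUV39H1 exceeded SUV39H2 by 1.99 to 8.46 times in the NC libraries, and the ratio was 0.901 and 1.07 with siFAT1-1 in HN30, the only condition in which the paralogs were level. Of the exon length of SUV39H2, 4.5% is shared with DCLRE1C on the opposite strand, and whether counting used strand is not given in the sources used here.

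EHMT2 (ENSG00000204371) had the smallest SE of the set. In HN6 it was at 66.2 and 114 CPM with NC and 54.1 to 72.2 CPM with KD, and in HN30 at 108 and 99.5 CPM with NC and 72 to 78.1 CPM with KD. The 4 KD libraries of HN30 were close to each other and below NC, whereas the first NC library of HN6, at 66.2 CPM, fell within the KD range and barely exceeded the siFAT1-1 library of the same time at 66.1 CPM. The log2 fold change was -0.46 (SE 0.155), and it was -0.46 (SE 0.229) in HN6 and -0.47 (SE 0.229) in HN30.

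CBX5 (ENSG00000094916), the reader of the mark, had a mean with siFAT1-2 below that with siFAT1-1 in both lines. HN6 had 149 and 175 CPM with NC, 170 and 260 CPM with siFAT1-1 and 54.5 and 197 CPM with siFAT1-2. HN30 had 244 and 286 CPM with NC, 178 and 195 CPM with siFAT1-1 and 58.9 and 130 CPM with siFAT1-2. Only the HN30 groups were apart, and the log2 fold change of KD against NC was -0.45 (SE 0.380). The other HP1 genes did not share its course: per kilobase, CBX5 over CBX1 (HP1 beta) was 0.643 and 0.687 with siFAT1-1 in HN30 against 0.122 and 0.246 with siFAT1-2, and CBX5 over CBX3 (HP1 gamma) was 0.192 and 0.209 against 0.0530 and 0.117.

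The subunits of CAF-1 were lowest with siFAT1-1 in HN30. CHAF1A (ENSG00000167670), the large subunit, was there at 13 and 16.5 CPM against 87.7 and 66.8 CPM with NC, or 19.1% of the NC mean, and siFAT1-2 left 31.8 and 65.7 CPM. The HN6 values were 49.8 and 85.2 CPM with NC, 46.0 and 46.8 CPM with siFAT1-1 and 25.2 and 70.3 CPM with siFAT1-2. CHAF1B (ENSG00000159259) was at 34.7 and 22.0 CPM with NC in HN30, 6.25 and 12.3 CPM with siFAT1-1 and 10.5 and 17.5 CPM with siFAT1-2. Its HN6 values were 25.2 and 48.8 CPM with NC, 43.2 and 42.7 CPM with siFAT1-1 and 10.6 and 32.7 CPM with siFAT1-2. The log2 fold changes were -0.92 (SE 0.395) and -0.77 (SE 0.387), and both genes were apart from NC in HN30 but not in HN6, where CHAF1A was below NC within each time.

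CHAF1A and CHAF1B are parts of 1 complex but were not in a fixed ratio. Per kilobase, CHAF1A over CHAF1B was 2.33 and 2.06 with NC in HN6, 1.26 and 1.29 with siFAT1-1 and 2.80 and 2.54 with siFAT1-2. In HN30 it was 2.99 and 3.59 with NC, 2.45 and 1.58 with siFAT1-1 and 3.59 and 4.44 with siFAT1-2. In each line the siFAT1-1 libraries had the lowest ratio and did not overlap with those of siFAT1-2.

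DNMT3B (ENSG00000088305, chromosome 20, 32762385 to 32809359), the de novo methyltransferase, separated by siRNA. In HN6 it was at 22.7 and 38.6 CPM with NC, 29.3 and 34.7 CPM with siFAT1-1 and 8.50 and 14.3 CPM with siFAT1-2. The HN30 libraries held 14.8 and 48.1 CPM with NC, 31.2 and 37.6 CPM with siFAT1-1 and 3.40 and 10.9 CPM with siFAT1-2. All 4 siFAT1-2 libraries were below the other 8, while the siFAT1-1 libraries lay within the range of NC, whose repeats in HN30 were far apart. The mean with siFAT1-2 was 37.1% of NC in HN6 and 22.8% in HN30, and with siFAT1-1 it was 104% and 109%.

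**Figure D1:**
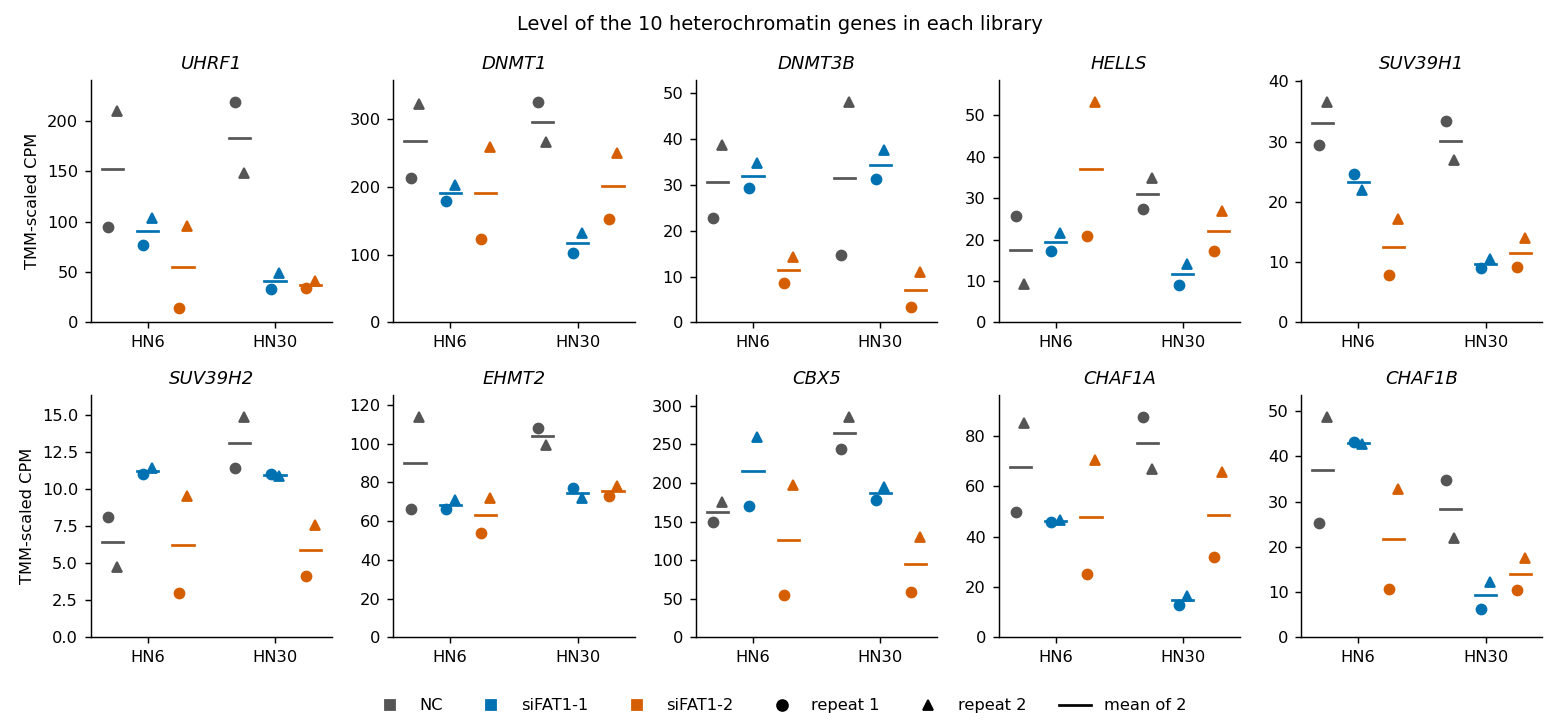
Level of each of the 10 genes in the 12 libraries, as TMM-scaled CPM on a linear axis from 0. Grey marks NC, blue siFAT1-1 and orange siFAT1-2, circles and triangles the repeats, and bars the mean of 2. SUV39H1 is below NC in all KD libraries of both lines, and DNMT3B is low in the siFAT1-2 libraries of both lines.

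Against the background of all 13887 genes tested with edgeR, the members were counted as follows. With both siRNAs pooled, UHRF1 and SUV39H1 were lower at an unadjusted P under 0.05 and a log2 fold change under -1, as were 1.04% of all genes, and 0 of the 10 members had an adjusted p under 0.05, as 0.547% of genes did. At an unadjusted P under 0.05 without a limit on the fold change there were 5 members, all lower, and 2016 of the 13887 genes, 1076 of them lower. The DESeq2 Wald test called 2 members at an adjusted p under 0.05, and 640 genes in all. The set was chosen on this contrast, so nothing is read from these counts. The median log2 fold change was -0.62 over the members and 0.02 over all genes, and 10 of 10 members and 48.0% of genes were below 0. Without the second NC library of HN30, HELLS and SUV39H2 stood at 0.09 and 0.08. Without the first NC library of HN6, 4 members were lower by the same limits, and 211 genes in all.

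With siFAT1-1 against NC, UHRF1, SUV39H1 and CHAF1A were lower by these limits, as were 2.35% of genes. With siFAT1-2 against NC, UHRF1, SUV39H1 and DNMT3B were lower, as were 4.75% of genes. Both comparisons use the same 4 NC libraries, and nothing is read from their counts. The log2 fold changes of UHRF1 were -1.46 (SE 0.504) and -1.93 (SE 0.505), those of SUV39H1 -1.02 (SE 0.311) and -1.39 (SE 0.310), those of CHAF1A -1.38 (SE 0.445) and -0.60 (SE 0.426), and those of DNMT3B 0.10 (SE 0.409) and -1.76 (SE 0.424).

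A test that the choice of members did not use is the difference between the siRNAs. DNMT3B was higher with siFAT1-1 than with siFAT1-2 by 1.86 on the log2 scale (SE 0.426, 95% interval 0.94 to 2.79), at an adjusted p of 0.0130 by edgeR's quasi-likelihood test over all genes. It was 1 of 10 members past the threshold, where 17.4% of all genes were, so the count of members was not above the background. The call of DNMT3B held in each of the 12 fits that left out 1 library, at adjusted p of 0.00964 to 0.0434. It also held under each other setting in which this difference was fitted. The difference was not fitted without the cell line term or within a single line. The other 9 members were not past the threshold, and their intervals left room for sizeable differences. UHRF1 differed by 0.48 (-0.59 to 1.54), SUV39H1 by 0.37 (-0.30 to 1.04), DNMT1 by -0.37 (-0.97 to 0.23) and EHMT2 by 0.05 (-0.33 to 0.43). CBX5 and SUV39H2 both differed by 0.87 (0.04 to 1.69 and 0.04 to 1.70, adjusted p = 0.130 and 0.132), HELLS by -0.93 (-1.87 to 0.01), CHAF1A by -0.78 (-1.73 to 0.17) and CHAF1B by 0.30 (-0.71 to 1.31). With the repeat as a block, which pairs libraries of the same time within a line, CBX5 passed as well (1.01, adjusted p = 0.0424). DNMT3B and SUV39H2 were the members with both siFAT1-1 libraries above both siFAT1-2 libraries in each line, as were 18.2% of genes.

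Other values were compared between the siRNAs as well, and not all of them were apart. The summed level of the 9 squamous markers was 6013 and 5120 CPM with siFAT1-1 in HN6 against 1973 and 2824 CPM with siFAT1-2, and 3220 and 3074 against 1242 and 1645 CPM in HN30, and 5 of the 9 were higher with siFAT1-1 and 1 with siFAT1-2 at an adjusted p under 0.05, where 1394 and 1026 of the 13887 genes were. The 10 markers of other cell types summed to 115 and 90.9 CPM against 153 and 64.5 CPM in HN6, and to 66.6 and 54.5 against 40.2 and 39.6 CPM in HN30, and of the 4 that could be tested 3 were higher with siFAT1-1 and 0 with siFAT1-2. FAT1 was at a mean of 8.07 CPM with siFAT1-1 and 13.3 CPM with siFAT1-2 (difference -0.73, adjusted p = 0.119). The part of these values in the difference of DNMT3B was not tested.

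**Figure D2:**
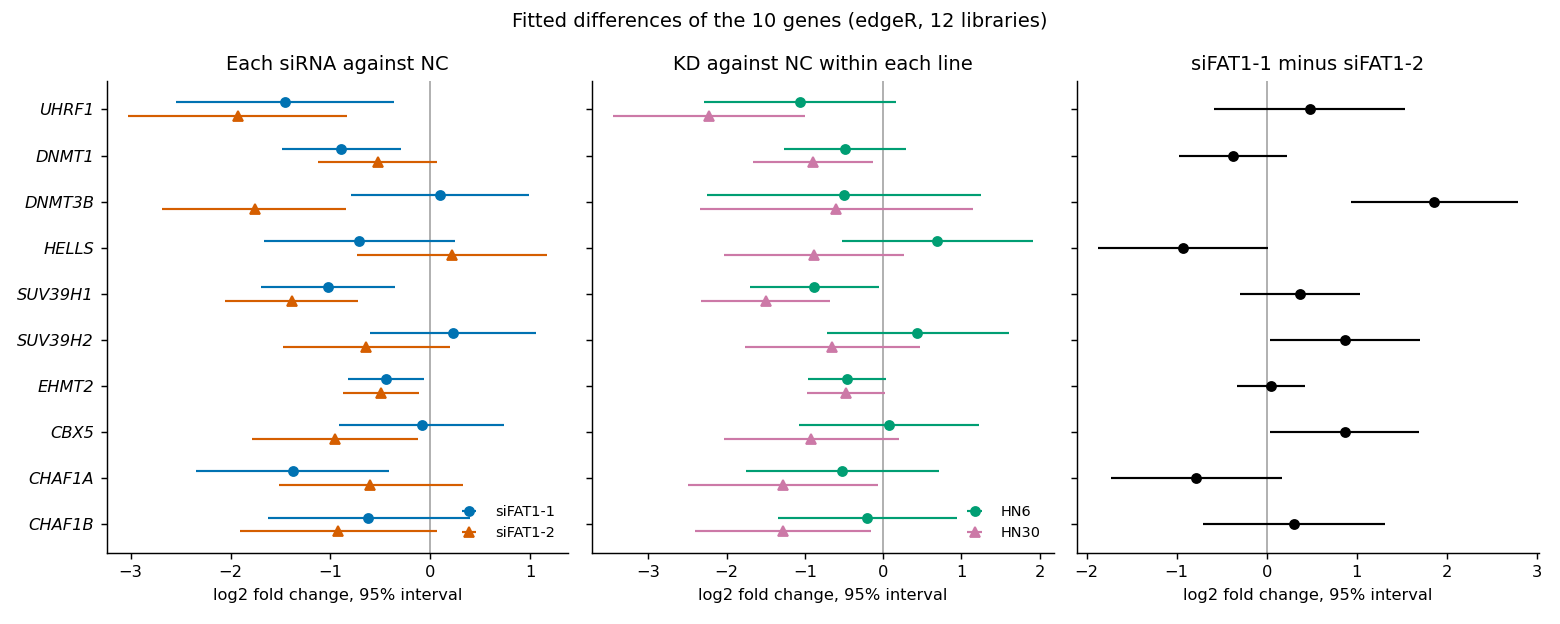
Fitted log2 fold changes of the 10 genes with 95% intervals: each siRNA against NC (left), KD against NC in each line (middle) and siFAT1-1 minus siFAT1-2 (right). Vertical lines mark 0. The interval of DNMT3B in the right panel, 0.94 to 2.79, lies furthest from 0.

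The lines were set side by side next. In HN30, UHRF1, SUV39H1, CHAF1A and CHAF1B were lower with KD by the limits above, as were 1.97% of genes, and in HN6 0 members were, as against 0.979% of genes. Every KD library of HN30 was below both NC libraries for 9 of 10 members, DNMT3B being the exception, and for 11.1% of genes. In HN6 this held for SUV39H1 alone and for 9.23% of genes. Taken within each time, a comparison added after the values were seen, every KD library was below its NC library for 5 members in HN6 (14.5% of genes) and for 9 in HN30 (16.0% of genes), so that the gap between the lines was narrower. The choice of members used these contrasts. The difference between the lines itself was not past the threshold for any gene: edgeR, DESeq2 and limma-voom each called 0 genes for the interaction of KD and cell line at an adjusted p under 0.05, and 298 genes (2.15%), among them 0 members, had an unadjusted P under 0.05. The interaction was above 0 for all 10 members, that is, the fold change was higher in HN6, and it was below 0 for 52.0% of all genes. Its median was 0.88 over the members against -0.03 over all genes. DNMT3B at 0.10 and EHMT2 at 0.01 turned below 0 when some libraries were left out. With the repeat as a block DNMT3B did so too (-0.04). The interaction was largest for HELLS at 1.57 (-0.12 to 3.26), and it was 1.16 (-0.64 to 2.97) for UHRF1 and 0.62 (-0.58 to 1.82) for SUV39H1. With 2 NC libraries a line these intervals leave room for a large difference between the lines and for none. The knockdown also differed by line: FAT1 itself was at -2.15 (SE 0.375) in HN6 and -0.93 (SE 0.382) in HN30. Its means with siFAT1-1 and siFAT1-2 were 17.1% and 28.0% of NC in HN6 and 39.3% and 65.4% in HN30. The part of the depth of knockdown in the members' values was not tested.

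Over siRNAs, 1 of 10 members differed in level between the lines, as did 56.9% of all genes. CHAF1B was higher in HN6 by 1.06 on the log2 scale (SE 0.385, adjusted p = 0.0329), with means of 33.9 and 17.2 CPM. That call was lost in 8 of the 12 fits that left out 1 library, at adjusted p of up to 0.0978. UHRF1 differed by 0.47 (-0.41 to 1.35) and SUV39H1 by 0.49 (-0.06 to 1.04, adjusted p = 0.114), and the partners CBX1 and CBX3 differed in opposite directions, by 1.04 (adjusted p = 1.55e-05) and -1.60 (adjusted p = 1.64e-05).

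Ordered by condition mean, UHRF1 ran from 183 CPM in HN30 NC and 152 CPM in HN6 NC, through 90.9 CPM in HN6 siFAT1-1 and 54.7 CPM in HN6 siFAT1-2, to 41.2 CPM in HN30 siFAT1-1 and 37.4 CPM in HN30 siFAT1-2. The repeats of each of these neighbours overlapped. For SUV39H1 the order was HN6 NC (33.0 CPM), HN30 NC (30.2 CPM), HN6 siFAT1-1 (23.3 CPM), HN6 siFAT1-2 (12.5 CPM), HN30 siFAT1-2 (11.6 CPM) and HN30 siFAT1-1 (9.78 CPM). HN6 siFAT1-1 was apart from its neighbours on both sides, and the NC conditions, like the last 3, overlapped each other.

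Levels of different genes were compared per kilobase of exon in the 4 NC libraries of both lines. UHRF1 was highest at 32.6 ± 11.3 CPM per kilobase (SD, n = 4), followed by DNMT1 at 18.3 ± 3.43, CHAF1A at 16.7 ± 4.09 and CBX5 at 14.2 ± 4.18 (SD, n = 4 each). HELLS at 1.71 ± 0.755, SUV39H2 at 2.75 ± 1.22 and DNMT3B at 4.52 ± 2.19 (SD, n = 4 each) were the lowest. UHRF2, the paralog of UHRF1 that does not replace it in maintenance methylation, was at 2.79 ± 0.634 CPM per kilobase (SD, n = 4). UHRF1 over UHRF2 was 8.57 to 20.9 in 3 of the NC libraries and 6.87 in the other, and 1.31 to 2.37 in the KD libraries of HN30. In HN6 it was 6.87 and 20.9 with NC, 6.69 and 7.73 with siFAT1-1 and 0.769 and 6.58 with siFAT1-2, so that the groups overlapped there. With the length of the longest transcript, the mean of this ratio in NC was 5.55 rather than 12.4, and UHRF1 and DNMT1 were level, at 38.9 ± 13.5 and 39.3 ± 7.37 CPM per kilobase (SD, n = 4).

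**Figure D3:**
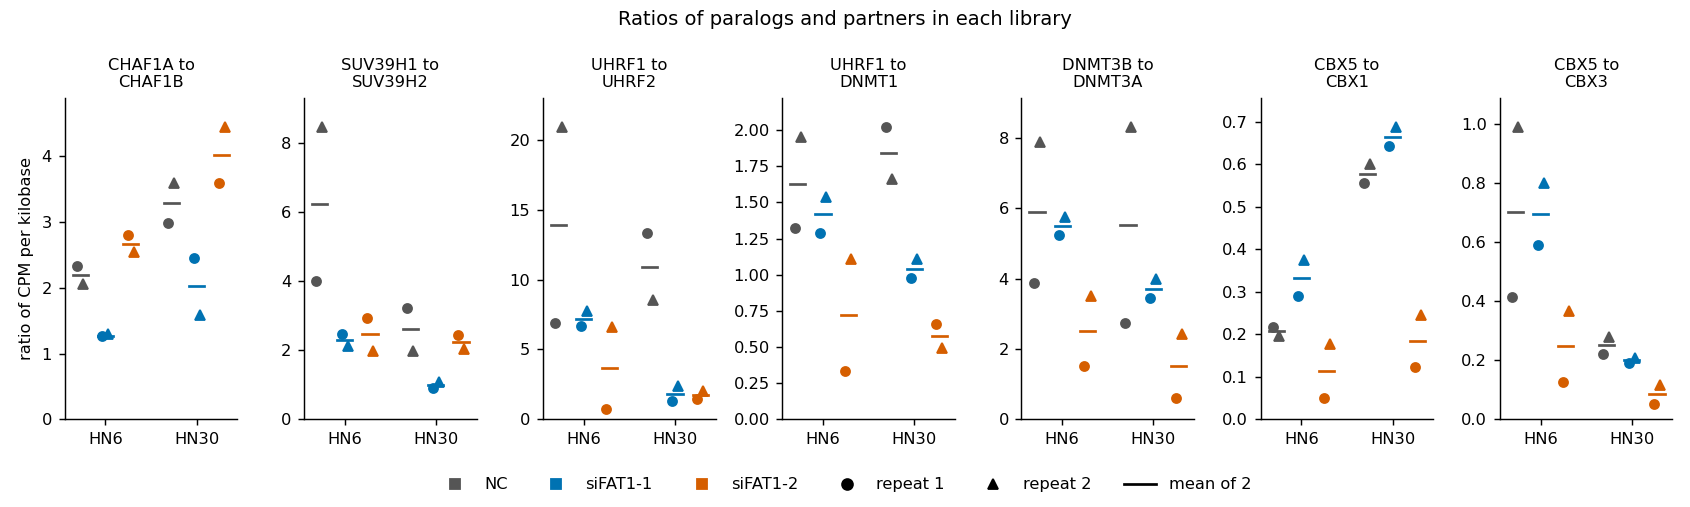
Ratios of CPM per kilobase of exon between paralogs or partners in each library, on linear axes from 0. Colours and symbols mark siRNA and repeat, bars the mean of 2. CHAF1A over CHAF1B is lowest with siFAT1-1 in each line, and CBX5 over CBX1 is lower in each siFAT1-2 library than in every siFAT1-1 library of the same line.

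Lists of partner genes were described by their counts in KD against NC. Of 20 tested partners in DNA methylation, 1 was lower by the limits above and 0 higher, with a median log2 fold change of -0.06. It was LIG1, the ligase that joins Okazaki fragments and whose methylated form recruits UHRF1 (90.0 against 43.9 CPM, -1.14, SE 0.347, adjusted p = 0.158). Of 24 histone chaperones and assembly factors, 2 were lower and 0 higher, with a median of -0.09. They were ASF1B, which hands histones to CAF-1 (-1.03, SE 0.297, adjusted p = 0.142), and HJURP, the chaperone of the centromeric histone (-1.20, SE 0.428, adjusted p = 0.227). Among 27 partners in H3K9 and H4K20 methylation, 16 partners of HP1 and the lamina and 13 remodelers, 0 passed in either direction, with medians of 0.10, -0.10 and 0.18. Of 9 tested germline genes known to be silenced by DNA methylation, 1 was higher and 0 lower, with a median of 0.12. It was STK31 (2.18 against 5 CPM, 1.37, SE 0.444, adjusted p = 0.185). Not all of the germline list was silent in these cells. MAGEA4 had a median of 102 CPM and at least 15.2 CPM in every library, and MAGEB2 a median of 91.0 and at least 54.0 CPM. A further 20 germline genes in the table were too low to test. Over all genes 282 were higher and 144 lower, with a median of 0.02.

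Partners without a call had values on both sides of 0. USP7, which stabilises UHRF1 and DNMT1, was at -0.51 (SE 0.139, adjusted p = 0.128), PCNA at -0.63 (SE 0.347, adjusted p = 0.427), TRIM28 at -0.41 (SE 0.201, adjusted p = 0.368) and UHRF2 at 0.34 (SE 0.167, adjusted p = 0.368). DNMT3A, EHMT1, SETDB1, CBX1, CBX3, ASF1A, RBBP4, NASP and CDCA7 lay between -0.28 and 0.24, and SMARCA5 was at 0.64 (SE 0.345, adjusted p = 0.422). Between the siRNAs, EHMT1, which pairs with EHMT2, was higher with siFAT1-1 (0.75, SE 0.171, adjusted p = 0.0128) and CBX1 was higher with siFAT1-2 (-0.82, SE 0.143, adjusted p = 0.00380).

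S phase genes were set beside the members. Of 40 listed S phase genes that are no members, 7 were lower and 0 higher by the limits above, by which 1.04% of all genes were lower, 39 had a fold change below 0, and the median was -0.60. Of 53 G2/M genes, 4 were lower and 0 higher, with a median of -0.49. The summed S phase level was 3906 and 2955 CPM with NC in HN30, 933 and 1203 CPM with siFAT1-1 and 1497 and 2607 CPM with siFAT1-2. In HN6 it was 3012 and 4183 CPM with NC, 2883 and 3269 CPM with siFAT1-1 and 1663 and 4123 CPM with siFAT1-2. In bulk RNA, fewer cells in S phase and less RNA per cell cannot be told apart, and the part of the cell cycle in the levels of the members was not tested.

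The members differed in how closely they followed that list. On the log2 scale relative to NC of the line, the mean of the 40 S phase genes was -1.94 and -1.56 in the siFAT1-1 libraries of HN30. There, SUV39H1 was near it at -1.73 and -1.50, with CHAF1A at -2.56 and -2.21, UHRF1 at -2.43 and -1.87 and DNMT3B at 0.22 and 0.49. In the siFAT1-1 libraries of HN6 the S phase mean was -0.19 and 0.07. SUV39H1 was there at -0.41 and -0.57, CHAF1A at -0.50 and -0.48, UHRF1 at -0.86 and -0.43 and DNMT3B at -0.02 and 0.23. In the second siFAT1-2 library of HN30 the S phase mean was -0.33, and CHAF1A at -0.22 was near it while UHRF1 was at -2.13, SUV39H1 at -1.09 and DNMT3B at -1.28. In the first siFAT1-2 library of HN6 the S phase mean was -0.73, with UHRF1 at -3.33, SUV39H1 at -2.05 and DNMT3B at -1.79. In the second siFAT1-2 library of HN6 the S phase mean was 0.65, with UHRF1 at -0.56, SUV39H1 at -0.93 and DNMT3B at -1.05. The summed S phase level of that second library, 4123 CPM, was not above NC in HN6 (3012 and 4183 CPM), so the 2 measures differed there. SUV39H1 was thus below both NC libraries of its line in the second siFAT1-2 library of each line, while UHRF1 in that of HN6 lay within the spread of NC (-0.58 to 0.58).

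**Figure D4:**
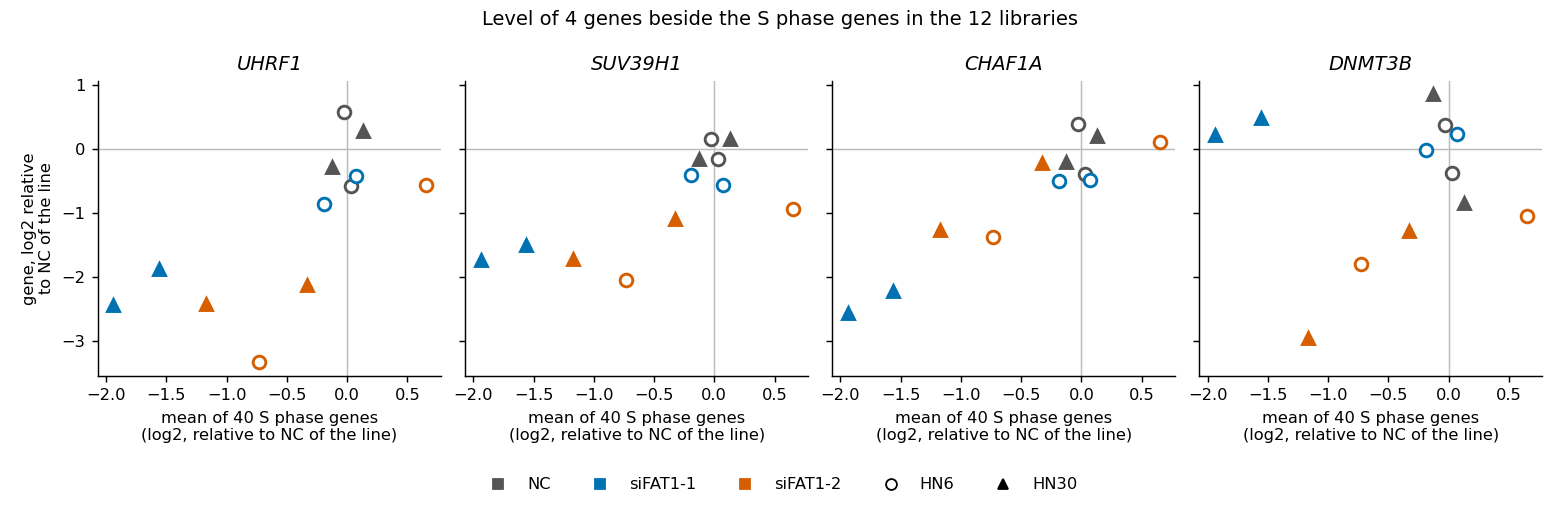
Level of UHRF1, SUV39H1, CHAF1A and DNMT3B (vertical axes) against the mean of 40 S phase genes (horizontal axes) in the 12 libraries, both as log2 values relative to the NC mean of the line. Open circles are HN6, filled triangles HN30. CHAF1A is lowest where the S phase mean is lowest, while DNMT3B is below 0 only with siFAT1-2 and in 2 NC libraries and 1 siFAT1-1 library.

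Across the 12 libraries, centred within each line, the pattern of UHRF1 was most like that of SUV39H1 among the members (Pearson's r = 0.95), and that of DNMT1 most like CHAF1A (r = 0.98). CBX5 was most like SUV39H2 (r = 0.90), and DNMT3B had r = -0.01 with CHAF1A and -0.23 with HELLS. Among all genes tested, the 5 most like UHRF1 were SEPHS1 (r = 0.989), POLE3, G3BP1, SETD3 and PSMG1 (r = 0.965), and the 5 most like SUV39H1 were C14orf80 (r = 0.982), MCM5, G3BP1, POLE3 and SPC24 (r = 0.973). The points share libraries, depth and siRNA, and these values are descriptions over n = 12 libraries. Centring within a line keeps the difference between KD and NC. UHRF1 and SUV39H1 had both been selected on that difference, so a high r between them was favoured in advance.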

How the data were processed

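Poly(A) RNA of 12 libraries was sequenced. The authors filtered duplicates and poor reads, aligned to hg38 (HISAT2 and featureCounts are named in the submitters' processing notes) and deposited raw counts per gene; 0 columns of per-sample values were left unused. Counting strand and annotation are not given in the sources used here. Counts were fitted with edgeR 4.0.16 in R 4.3.3 (TMM, filterByExpr with a minimum count of 10, glmQLFit, glmQLFTest) with cell line as a term, with Benjamini-Hochberg adjustment over the 13887 genes that passed, which included all 10 members. Fold changes used a prior count of 0.125 and log2 CPM a prior count of 2. Calls of lower or higher genes used the thresholds of the study's methods, a raw P under 0.05 with a log2 fold change beyond 1 in either direction. Lengths and positions are those of GENCODE 44 on GRCh38.

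The members and the gene lists were chosen with earlier results of these data known. Genes were named by rule: the members, FAT1, paralogs and direct partners by role, up to 3 genes of each partner list in each direction past those thresholds, and the 5 genes most like UHRF1 and SUV39H1; STK31, LIG1, ASF1B and HJURP came from the lists. The lists were DNA methylation partners, H3K9 and H4K20 methylation partners, HP1 and lamina partners, histone chaperones, remodelers, germline genes, S phase genes, G2/M genes, squamous markers and markers of other cell types. The test of KD against NC was run on simulated data first, with the same dispersion for all genes. The difference between the siRNAs and the interaction were not simulated.

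Repeat numbers stand for separate times in the labels and therefore pair the libraries of a line. The departures from the group mean of libraries with the same number correlated across genes at 0.0778, 0.219 and 0.242 in HN6 and -0.0337, 0.405 and -0.0216 in HN30. Alternatives were the repeat as a block, DESeq2 1.42.0 size factors and its Wald test, limma-voom (limma 3.58.1), no filter on low counts, at least 1 CPM in 4 libraries, no cell line term, separate fits per line, each library left out, the longest transcript as length and, chosen after seeing the data, each KD library against the NC library of its time.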

Additional observations from a re-analysis of the deposited data

Results flagged for a closer look

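DNMT3B differed between the siRNAs by 1.86 on the log2 scale (siFAT1-1 minus siFAT1-2, SE 0.426, edgeR adjusted p = 0.0130), with all 4 siFAT1-2 libraries below all 4 siFAT1-1 libraries. It was singled out because the effects of the 2 siRNAs against the same NC libraries differed by a test of the difference itself. That test called 17.4% of all genes, so a call was common.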

How the results depend on the processing

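Of the counts given in the text, 58 of 64 under settings other than leaving out a library stayed within 1.5 times, and the cause of each change was not tested. For KD against NC, genes with an adjusted p under 0.05 numbered 76, and 44 with the replicate block, 640 with the DESeq2 Wald test and 4 without a cell line term. Genes lower by P and fold change numbered 144, and 83 without the cell line term. Members with an adjusted p under 0.05 numbered 0, and 2 with the DESeq2 Wald test. For the difference between the siRNAs, members called numbered 1, and 2 with the replicate block, which added CBX5. In KD against NC, the difference between the siRNAs, the interaction and HN6 against HN30, the block changed no other call of a member. The block's fits for single siRNAs against NC and within a line are not reported here. The block turned the interaction of DNMT3B from 0.10 to -0.04, neither of them called. With each library left out, the ranges were 12 to 61 genes with an adjusted p under 0.05, 104 to 211 genes lower, 2 to 4 members lower and 0 members with an adjusted p under 0.05 for KD against NC. They were 1015 to 3381 genes and 1 to 3 members for the difference between the siRNAs, 0 genes and 0 members for the interaction, and 6998 to 7927 genes and 0 to 2 members for HN6 against HN30. Of the members' differences between the siRNAs, HELLS passed without HN6 NC repeat 2 (adjusted p = 0.0455), and SUV39H2 and CBX5 passed without HN6 siFAT1-2 repeat 2 (0.0239 and 0.0143). SUV39H1 was higher in HN6 than in HN30 without HN6 siFAT1-2 repeat 1 (0.66, adjusted p = 0.0240). Differences that crossed 0 were not called with any library left out: in KD against NC HELLS (-0.55 to 0.09) and SUV39H2 (-0.40 to 0.08), between siRNAs EHMT2 (-0.03 to 0.11) and CHAF1B (-0.03 to 0.64), for the interaction DNMT3B (-0.98 to 0.71) and EHMT2 (-0.34 to 0.43), and between lines DNMT3B (-0.04 to 0.46), HELLS (-0.04 to 0.50) and CBX5 (-0.37 to 0.11). With the longest transcript as length, UHRF1 over UHRF2 in the NC libraries moved from 12.4 to 5.55 and UHRF1 over DNMT1 from 1.74 to 0.965. Members with every KD library below NC numbered 1, and 5 within each time, a comparison chosen after seeing the data. The lowest count of SUV39H1 in a library was 241, and what set the width of the intervals was not tested.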
